A study of Mus musculus with 15 samples.

Results

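The comparison set 3 forebrain libraries against 3 hindbrain libraries of the mouse embryo, 6 of the 15 RNA-seq libraries in the study, which sampled 5 brain regions with 3 libraries each. All libraries came from C57bl/6 embryos of stage E12.5 (embryonic day) that carried green fluorescent protein under the promoter of Th, the gene of tyrosine hydroxylase, so both groups share this transgene and no group is without it. No treatment or mutation separates the groups. Regions were dissected under a microscope. Nothing in the labels tells whether different embryos gave the 3 libraries of a region, so each p-value measures the spread among these libraries alone. Sex-linked genes, given below, set replicate 3 apart from replicates 1 and 2 in both regions, so that spread is not wholly technical. Of the 24264 genes in the table, 13001 had at least 1 RPKM (reads scaled by gene model length and library size) in at least 3 of the 6 libraries and were tested. The remaining genes include 5379 at 0 in all 6 libraries.

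Forebrain and hindbrain are the rostral and caudal ends of the brain. The forebrain consists of the telencephalon, which forms cortex and basal ganglia, and the diencephalon, which forms thalamus, prethalamus and pretectum. The hindbrain consists of segments called rhombomeres, patterned from the isthmus at its rostral edge by fibroblast growth factor and the Engrailed and Pax2/5/8 factors, and more caudally by retinoic acid and the Hox genes. Transcription factors laid down along this axis and along the dorsoventral axis fix which neurons form where: serotonergic neurons, for example, arise from the ventral hindbrain and not from the forebrain.

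The 6 libraries held between 8028564 and 10563131 recovered reads in gene models, and 3 reads for a gene of median length corresponded to 0.0851 to 0.112 RPKM. One library of each region stood apart from its pair. Forebrain 2 and forebrain 3 had a Pearson r of 0.991 across the tested genes on the log2(RPKM + 1) scale, against 0.963 and 0.958 for forebrain 1 with them. Forebrain 1 was closer to dorsal midbrain 3 (r = 0.979) and to alar plate 2 (0.974) than to any forebrain library, and forebrain 2 and forebrain 3 were closer to hindbrain 2 and hindbrain 3 (0.970 to 0.974) than to forebrain 1. Hindbrain 2 and hindbrain 3 had an r of 0.994, against 0.983 to 0.984 for hindbrain 1. In forebrain 1, 211 genes lay more than 1 log2 unit above both other forebrain libraries and 245 below both. In hindbrain 1 the numbers were 30 and 33. Values without these libraries are given beside the results they change most. Summed RPKM of the 18 proliferation genes was 584.5 in forebrain 1 and 339.4 in hindbrain 1, against 199.5 to 214.2 in the other 4.

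The labels were checked against regional markers. The libraries labelled forebrain held diencephalic genes at high levels, among them Tcf7l2, Six3, Barhl2 and Bhlhe23. Not all of these are particular to the forebrain. Barhl2 was at 29.5 to 55.4 RPKM in the dorsal midbrain and 35.8 to 53.5 in the alar plate, against 14.5 to 23.1 in the forebrain. Of the 22 genes of the telencephalon list, 7 passed the filter. Tbr1, of early cortical neurons, was at most 0.101 RPKM, and Emx1, of the cortical primordium, was at 0.240, 2.68 and 2.52 RPKM in forebrain 1, 2 and 3. The summed level of the telencephalon list was nonetheless higher in the forebrain, at 106.3 to 278.1 RPKM against 34.8 to 40.5, and included Lhx2, Emx2 and Otx1, which the diencephalon also expresses. They also differed among themselves. Forebrain 1 held Gbx2, a thalamic factor, at 111 RPKM against 8.89 and 5.44 in forebrain 2 and 3, and Lhx2, an early thalamic factor, at 169 against 33.7 and 16.6. Dlx1, a factor of GABAergic neurons in the prethalamus and telencephalon, stood at 26.1, 0.0370 and 5.89 RPKM. Forebrain 1 had little of the floor plate factor Foxa2, at 0.137 RPKM against 16.3 and 20.6. Lmx1a, of the midbrain and caudal diencephalic floor, was at 0.207, 6.93 and 41.3 RPKM in forebrain 1, 2 and 3.

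The hindbrain libraries held isthmus markers and few Hox transcripts. Of 39 Hox genes, 28 were at 0 in all 6 libraries and none passed the filter. Hoxa2, the Hox gene that reaches furthest rostrally, had 0.107, 11.1 and 6.24 RPKM in hindbrain 1, 2 and 3, and Hoxb2 had 0, 8.99 and 3.05. En1, a factor of the isthmus and midbrain, ran the other way, at 39.7, 8.56 and 4.55 RPKM. Meis2, a partner of Hox proteins, was at 11.5 RPKM in hindbrain 1 and at 106.5 and 78.6 in hindbrain 2 and 3. Hindbrain 1 thus had the highest Engrailed level and the lowest Hox and Meis2 levels of its region. Other markers were mixed. Pax5 was also highest in hindbrain 1, at 18.3, 4.76 and 3.41 RPKM in hindbrain 1, 2 and 3. Pax2, of the midbrain and isthmus list as well, was lowest in hindbrain 1, at 1.98, 7.78 and 4.82. Gbx2, a member of the hindbrain segment list, was lowest there too, at 0.128, 7.44 and 7.47.

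**Figure D1:**
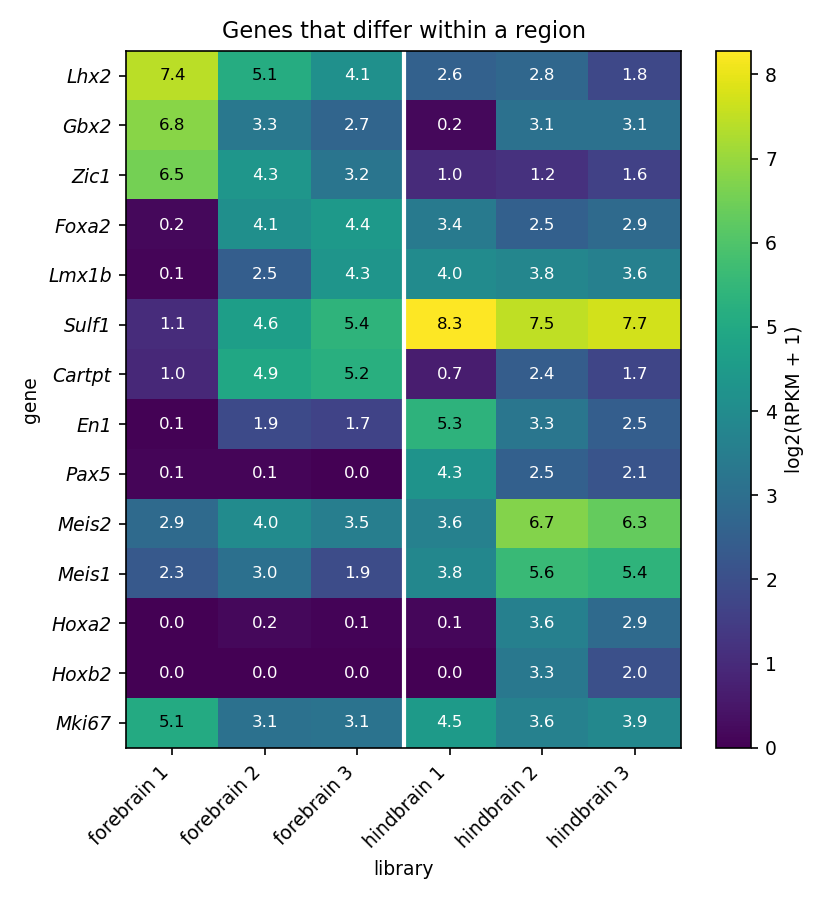
Levels of 14 genes, 13 of them tied to regions or cell types and 1, Mki67, to proliferation, as log2(RPKM + 1), in each of the 6 libraries (columns), chosen after their values were seen. Forebrain 1 stands apart from forebrain 2 and 3 at Gbx2, Lhx2, Foxa2 and Sulf1, and hindbrain 1 from hindbrain 2 and 3 at En1, Meis2, Hoxa2 and Hoxb2.

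Against this spread, 277 genes differed between the regions at an adjusted p under 0.05 (limma, two-sided, Benjamini-Hochberg over all genes tested), which is 2.13% of the genes tested and is termed called below. Of these, 72 were higher in the forebrain (0.554%) and 205 higher in the hindbrain (1.58%). The 3 libraries of one region lay above the 3 of the other at every called gene. Among all 13001 genes tested the forebrain lay wholly above at 1160 and the hindbrain at 1627, so such separation is common. The median difference in mean log2(RPKM + 1) over all 13001 genes was -0.01. RPKM scales each library to its own size, so a median near 0 does not bear on whether total RNA differed. Among called genes the median size was 1.11 log2 units for those higher in the forebrain and 1.24 for those higher in the hindbrain. Of the former, 13 differed by 2 log2 units or more, and of the latter 40. The count depended on the libraries: it was 519 (171 and 348) without forebrain 1, between 65 and 165 without any 1 of the other 5, and 868 (306 and 562) with forebrain 1 and hindbrain 1 both left out, where 276 of the 277 genes were called again. Counts for lists from that last fit, given below, stand against its own 868 of 13001 genes and not against 2.13%. In bulk tissue a lower number of cells of a type and less RNA per cell cannot be told apart.

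**Figure D2:**
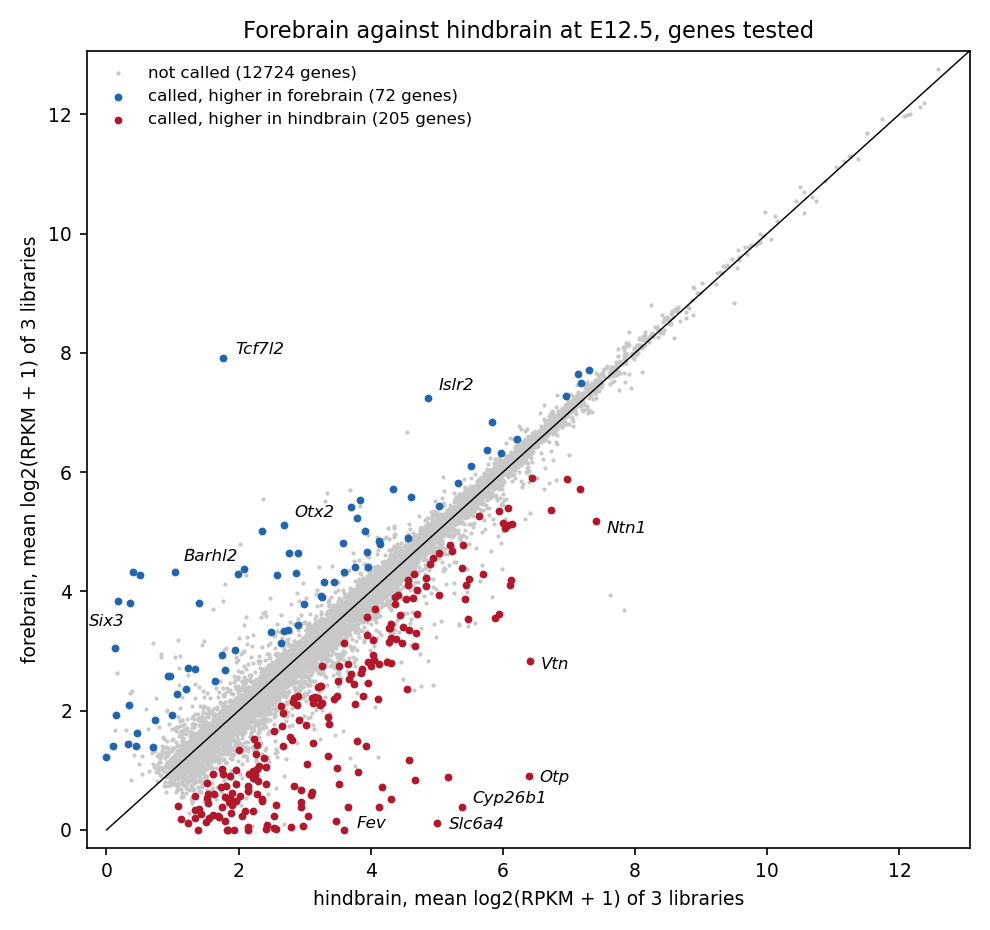
Mean log2(RPKM + 1) of the 3 forebrain libraries (vertical) against that of the 3 hindbrain libraries (horizontal) for the 13001 genes tested, each point a gene, with the line of equal levels. The 72 genes called higher in the forebrain lie above the line, led by Tcf7l2, and the 205 called higher in the hindbrain lie below it, with Slc6a4, Cyp26b1 and Otp near the floor of the forebrain scale.

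Forebrain-high genes were led by transcription factors of the diencephalon, several of them as high in dorsal midbrain or alar plate libraries. Tcf7l2, the Wnt effector expressed in thalamus and pretectum, stood at 404, 259 and 132 RPKM in forebrain 1, 2 and 3, and at 3.62, 1.85 and 1.93 in hindbrain 1, 2 and 3. The lowest forebrain library was far above the highest hindbrain one, and the difference of 6.16 ± 0.41 (SE, log2(RPKM + 1) scale) was the highest of all called genes (adjusted p = 0.00129). Six3, a homeobox factor required for the rostral brain and eye, stood at 7.62, 19.9 and 15.5 RPKM in the forebrain and at 0.201, 0.0903 and 0.107 in the hindbrain (difference 3.67 ± 0.31, adjusted p = 0.00375). The hindbrain values of Six3 lay around the level of 3 reads. Its neighbour Six3os1 showed the same pattern, at 4.35 to 10.1 against 0.0591 to 0.135 RPKM. Because the sources used here do not say whether counting used strand, reads of these neighbours may not be separable. Emx2, a homeobox factor of dorsal telencephalon and adjoining tissue, was at 7.21, 19.1 and 15.5 RPKM against 0.323, 0 and 0.581. Barhl2, a homeobox factor of the diencephalon, was at 20.9, 14.5 and 23.1 RPKM against 2.28, 0.424 and 0.873.

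Of the 22 diencephalon genes, all of which were tested, 7 were called higher in the forebrain and none higher in the hindbrain. The shares over all genes were 0.554% and 1.58%. The median difference was 1.71 against -0.01 over all genes. Besides Tcf7l2, Six3 and Barhl2 the 7 called genes were Bhlhe23 (3.92), Lef1 (2.40), Dbx1 (1.88) and Nkx2-2 (1.43). Bhlhe23 is a basic helix-loop-helix factor, Lef1 a Wnt effector, Dbx1 a progenitor homeobox factor and Nkx2-2 a homeobox factor of ventral progenitors. Nkx2-2 was the steadiest of these, at 18.1, 16.4 and 22.1 RPKM in the forebrain against 6.61, 5.50 and 6.91 in the hindbrain (adjusted p = 0.00482). Several thalamic genes missed the threshold, and forebrain 1 held far more of them than its pair. Lhx9, a LIM homeobox factor, had 62.0, 23.9 and 12.7 RPKM against 2.41 to 4.18 (difference 2.78, adjusted p = 0.0544, and 0.0215 with the replicate number as a block). Lhx2 differed by 3.18 (adjusted p = 0.123), Gbx2 by 2.16 with overlapping groups (0.538) and Olig3, a thalamic progenitor factor, by 1.86 with 39.6, 1.57 and 2.93 RPKM against 0.702 to 1.27 (0.488). With forebrain 1 and hindbrain 1 left out, 9 of the 22 were called higher in the forebrain and 1 higher in the hindbrain, with a median of 1.55. Over all 13001 genes that fit called 306 and 562. Without hindbrain 3 alone 4 of the 22 were called.

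Further genes called higher in the forebrain included transcription factors and membrane proteins. Otx2, the factor that sets forebrain and midbrain against hindbrain, was at 41.4, 35.5 and 25.7 RPKM in the forebrain and at 4.22, 4.07 and 9.07 in the hindbrain (difference 2.42 ± 0.30, adjusted p = 0.0138). It was present in every hindbrain library. Islr2, a neuronal membrane protein involved in axon extension, had the smallest ratio of highest to lowest forebrain library among the 15 leading genes, at 141, 148 and 162 RPKM against 22.4, 30.0 and 33.1 (difference 2.37 ± 0.14, adjusted p = 0.000793). Pdlim3, a PDZ and LIM domain protein, was at 23.8, 18.1 and 18.2 against 4.31, 3.41 and 2.22 RPKM (2.31 ± 0.20). Reln, the secreted glycoprotein of Cajal-Retzius and other early neurons, was outside the rule for named genes and was added after its values were seen, at 19.2, 21.3 and 15.4 RPKM against 3.36, 6.24 and 5.80 (1.70, adjusted p = 0.0150). The other genes among the 15 highest differences were Tfap2d (3.77), Tal2 (2.65), Ntng2 (2.30) and Mdga1 (1.76). Tfap2d and Tal2 are transcription factors, the latter of midbrain GABAergic neurons, and Ntng2 and Mdga1 are surface proteins anchored to the membrane by a lipid.

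How firmly these calls stood varied. Tcf7l2, Six3, Emx2, Six3os1, Islr2, Pdlim3, Nkx2-2 and Fzd1 were called in all 6 fits that left out 1 library. Without hindbrain 3, Bhlhe23 (adjusted p = 0.0597), Tfap2d (0.0951), Tal2 (0.211), Lef1 (0.169), Ntng2 (0.165), Dbx1 (0.196) and Mdga1 (0.0951) lost the call, and Barhl2 was called in 5 of the 6 fits. Otx2 lost it without forebrain 2 (0.0669), hindbrain 1 (0.0567) and hindbrain 2 (0.0621). Tal2 was called in 1 of the 6 fits, without hindbrain 1, and Mdga1 in 1, without forebrain 1. Lef1 and Ntng2 were called in 2 each, without forebrain 1 and without forebrain 3. Dbx1 was called in 2, without forebrain 1 and without forebrain 2. Tfap2d also lost the call without forebrain 2 (0.0681) and hindbrain 2 (0.0774). With the replicate number as a block, Dbx1 (0.0533) and Mdga1 (0.0795) missed the threshold.

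**Figure D3:**
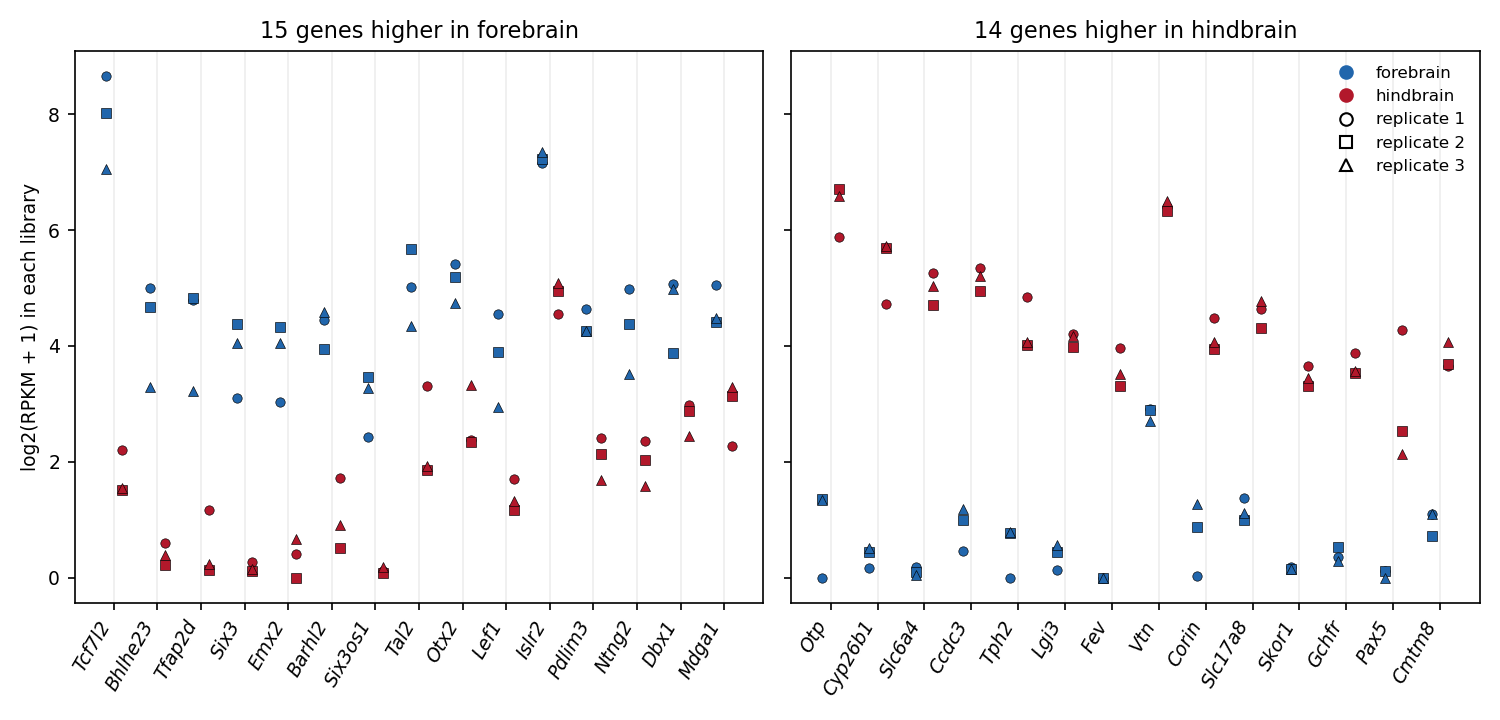
The 15 highest differences (left) and 14 of the 15 lowest (right) among called genes with at least 5 RPKM on average in the higher region, as log2(RPKM + 1) in each of the 6 libraries. Blue is forebrain, red is hindbrain, and circle, square and triangle are replicates 1, 2 and 3. The regions do not overlap at any gene shown, which the rule for these genes required. The gap is widest at Tcf7l2 on the left and at Otp and Slc6a4 on the right.

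The serotonergic list genes Fev, Slc6a4, Tph2 and Gch1 were called higher in the hindbrain and were under 1 RPKM in every forebrain library. Serotonergic neurons make serotonin from tryptophan with tryptophan hydroxylase (Tph2) and its cofactor tetrahydrobiopterin, take it back up with the transporter Slc6a4, and depend on the ETS factor Fev, also known as Pet1. Fev was listed at 0 in all 3 forebrain libraries and stood at 14.7, 8.92 and 10.4 RPKM in hindbrain 1, 2 and 3 (difference on the log2(RPKM + 1) scale -3.60 ± 0.18, adjusted p = 0.000339). Slc6a4 stood at 37.3, 25.01 and 31.9 RPKM in the hindbrain and at 0.143, 0.0748 and 0.0289 in the forebrain, near the level of 3 reads (-4.89 ± 0.15, adjusted p = 0.000109). Tph2 was at 27.8, 15.2 and 15.7 RPKM in the hindbrain against 0, 0.703 and 0.725 (-3.79 ± 0.30, adjusted p = 0.00310). Gch1, the first enzyme of tetrahydrobiopterin synthesis, was at 3.62, 3.19 and 3.43 RPKM against 0.320, 0.780 and 0.949 (-1.41 ± 0.17, adjusted p = 0.0118). Gch1 was chosen after its values were seen, as a called member of the list. Gchfr, the regulator of that enzyme and no member of the list, was among the 15 lowest differences, at 13.7, 10.5 and 10.9 RPKM against 0.279, 0.438 and 0.226 (-3.27 ± 0.13). The windows of 250 bases before the annotated starts of the 4 called serotonergic list genes are shown because these genes were high in the same 3 libraries and 1 of them encodes an ETS factor, a family that binds a GGAA core. They are from RefSeq, build GRCm38.p6, read along each gene's strand, with GGAA and its other-strand form TTCC in capitals.
Fev: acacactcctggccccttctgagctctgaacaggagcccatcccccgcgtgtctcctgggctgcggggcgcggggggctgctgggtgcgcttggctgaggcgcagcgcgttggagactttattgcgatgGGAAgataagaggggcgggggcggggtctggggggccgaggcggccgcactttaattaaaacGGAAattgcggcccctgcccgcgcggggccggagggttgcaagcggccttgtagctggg
Slc6a4: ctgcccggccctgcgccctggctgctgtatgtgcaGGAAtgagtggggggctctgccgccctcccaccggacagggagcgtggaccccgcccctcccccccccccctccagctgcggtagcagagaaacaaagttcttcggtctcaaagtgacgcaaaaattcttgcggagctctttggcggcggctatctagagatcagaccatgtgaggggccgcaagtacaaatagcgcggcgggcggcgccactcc
Tph2: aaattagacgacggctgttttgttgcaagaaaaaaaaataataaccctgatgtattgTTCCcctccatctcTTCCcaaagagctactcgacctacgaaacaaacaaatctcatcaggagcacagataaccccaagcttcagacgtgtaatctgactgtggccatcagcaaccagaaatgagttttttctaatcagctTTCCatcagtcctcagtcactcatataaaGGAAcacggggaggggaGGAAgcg
Gch1: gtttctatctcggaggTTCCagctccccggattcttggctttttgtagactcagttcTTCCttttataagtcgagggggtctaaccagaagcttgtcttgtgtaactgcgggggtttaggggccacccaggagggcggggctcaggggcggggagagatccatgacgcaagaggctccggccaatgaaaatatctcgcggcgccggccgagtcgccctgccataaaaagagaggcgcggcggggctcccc

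The windows are chr1:74885409-74885658 on the minus strand for Fev, chr11:76998347-76998596 on the plus strand for Slc6a4, chr10:115185023-115185272 on the minus strand for Tph2 and chr14:47189414-47189663 on the minus strand for Gch1. GGAA on either strand occurred 2 times for Fev, 1 time for Slc6a4, 5 times for Tph2 and 2 times for Gch1. It occurs in 93.4% of all 32851 windows of this length, with a median of 3 per window. The longer CCGGAA (other strand TTCCGG), which contains GGAA, was in none of the 4 windows and in 12% of all. GATAAG (other strand CTTATC), the core bound by GATA factors, was in the Fev window alone of the 4, directly after its first GGAA, and in 6.55% of all. These matches describe letters only.

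Of 12 tested serotonergic list genes, 4 were called higher in the hindbrain and 1, Nkx2-2, higher in the forebrain, with a median of -1.14. The shares over all genes were 1.58% and 0.554%. Nkx2-2 marks ventral progenitors in both regions and is a member of the diencephalon list too. Slc18a2, Gata2, Lmx1b and Ddc were among the members not called. Slc18a2, the vesicular monoamine transporter, was at 25.7, 20.7 and 23.8 RPKM against 16.2, 4.36 and 5.78 (-1.51, adjusted p = 0.151). Gata2, a factor of serotonergic and GABAergic neurons, was at 29.4, 24.1 and 27.4 against 9.47, 20.98 and 14.3 (-0.88, adjusted p = 0.179). Lmx1b, required for serotonergic neurons, overlapped between the regions, at 14.9, 12.8 and 11.2 against 0.0772, 4.52 and 18.7 RPKM. Ddc, the shared decarboxylase of serotonin and dopamine synthesis, overlapped as well, at 25.1, 9.75 and 10.7 against 2.14, 20.7 and 24.4. Fev, Slc6a4, Tph2 and Gchfr, the last no member of the list, were called in all 6 fits that left out 1 library. Gch1 lost the call without hindbrain 1, hindbrain 2 or hindbrain 3, where 3 list genes were called higher in the hindbrain. With forebrain 1 and hindbrain 1 left out, 6 of the 12 were called higher in the hindbrain and 3 higher in the forebrain, with a median of -0.65. Across the other 9 libraries Slc6a4, Tph2 and Fev were also high in the ventral midbrain, at 14.2 to 25.6, 6.18 to 12.8 and 9.27 to 15.8 RPKM. In the alar plate and dorsal midbrain Slc6a4 was at most 0.286 RPKM and Fev at most 0.0547.

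Interneuron factors of the hindbrain and spinal cord were also higher in the hindbrain. Of 13 tested members, 6 were called higher in the hindbrain and none higher in the forebrain, with a median of -2.40. The shares over all genes were 1.58% and 0.554%. Otp, a homeobox factor of hindbrain, spinal and hypothalamic neurons, had the lowest difference of all called genes, at 57.8, 103.5 and 95.6 RPKM in the hindbrain against 0, 1.58 and 1.54 in the forebrain (-5.49 ± 0.41, adjusted p = 0.00227). Lhx4, a LIM homeobox factor of V2 and motor lineages, was at 7.31, 5.51 and 5.24 against 0, 0.0545 and 0.0422 (-2.75 ± 0.14). Skor1, a transcriptional corepressor of dorsal interneurons, was at 11.6, 8.88 and 9.89 against 0.130, 0.109 and 0.106 (-3.31 ± 0.12, adjusted p = 0.000184). Slc17a8, the vesicular glutamate transporter VGLUT3, was at 24.0, 18.9 and 26.3 against 1.61, 1.01 and 1.16 (-3.41 ± 0.16). Pax2, a factor of inhibitory interneurons and of the isthmus, was lower, at 1.98, 7.78 and 4.82 against 0 to 0.0340 (-2.40 ± 0.37, adjusted p = 0.0304). It lost the call without forebrain 2 (0.110), forebrain 3 (0.0952), hindbrain 2 (0.0648) or hindbrain 3 (0.151).

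Some interneuron genes were seen in hindbrain 2 and 3 and little in hindbrain 1, while Lhx4 and Skor1, given above, were highest in hindbrain 1. Foxd3, tested but not called (adjusted p = 0.0673), had 1.62, 8.66 and 9.48 RPKM in hindbrain 1, 2 and 3. Lbx1, a dorsal interneuron factor that starts in the Hox-bearing hindbrain, had 0, 7.79 and 2.02, and Evx1, of V0 interneurons, had 0.447, 5.79 and 6.54. Both were at 0 to 0.0357 RPKM in the forebrain and were not tested, since they reached 1 RPKM in 2 libraries only. With forebrain 1 and hindbrain 1 left out, 8 of the 13 interneuron genes were called higher in the hindbrain and 1 higher in the forebrain. Sim1, the member furthest on the forebrain side, was at 1.46, 2.86 and 7.58 RPKM there against 0.0344 to 0.805 (1.80, adjusted p = 0.138, and 0.0294 with the replicate number as a block).

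The hypothalamus list held genes that hindbrain neurons also use. Of its 8 tested members, Otp, Hmx2 and Hmx3 were called higher in the hindbrain and Six3 higher in the forebrain. The shares over all genes were 1.58% and 0.554%. Hmx2 and Hmx3 are neighbouring homeobox genes known from hypothalamus, inner ear and hindbrain. Both were listed at 0 in all forebrain libraries. Over hindbrain 1, 2 and 3, Hmx2 had 4.68, 2.65 and 3.16 RPKM (adjusted p = 0.00373) and Hmx3 had 3.57, 2.15 and 2.21 RPKM (adjusted p = 0.00501). The telencephalon list had 7 of 22 members tested and 1 called, Emx2.

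Of 13 floor plate genes, all tested, 5 were called higher in the hindbrain and none higher in the forebrain. The shares over all genes were 1.58% and 0.554%. The difference was below 0 at all 13, against 6729 of 13001 over all genes. The floor plate is the ventral midline strip of the neural tube, which secretes hedgehog protein and axon guidance cues and differs in its make-up along the axis. The 5 called were Corin (-3.45 ± 0.32, adjusted p = 0.00491), Ferd3l (-2.76 ± 0.32, 0.0109), Ntn1 (-2.23 ± 0.38, 0.0428), Slit1 (-1.93 ± 0.23, 0.0128) and Foxj1 (-1.21 ± 0.16, 0.0178), and the median of the list was -1.89. Corin, a membrane protease, was at 21.4, 14.5 and 15.8 RPKM against 0.0198, 0.829 and 1.41. Ntn1, the attractant netrin-1, was at 229, 135 and 156 RPKM against 20.5, 35.9 and 59.2. Slit1, a repellent for crossing axons, was at 79.6, 57.8 and 69.8 against 11.7, 19.9 and 21.9. The members with the lowest differences were not called, and forebrain 1 lay far below its pair at both. Sulf1, a sulfatase that trims heparan sulfate, had 310, 178 and 208 RPKM in the hindbrain and 1.09, 24.0 and 40.6 in the forebrain (-4.13 ± 1.054, adjusted p = 0.130). Spon1, the secreted protein F-spondin, had 253, 160 and 187 against 3.33, 24.9 and 31.3 (-3.68 ± 0.73, 0.0656).

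The forkhead factors Foxa2 and Foxa1, unlike the forkhead factor Foxj1, did not follow the called floor plate genes. Foxa2 was at 9.35, 4.79 and 6.30 RPKM in the hindbrain and at 0.137, 16.3 and 20.6 in the forebrain (-0.02, adjusted p = 0.997), and Foxa1 at 16.5, 8.26 and 9.42 against 2.35, 12.3 and 32.5 (-0.06). With forebrain 1 and hindbrain 1 left out, 8 of the 13 floor plate genes were called higher in the hindbrain and 1, Foxa2, higher in the forebrain (adjusted p = 0.00368), with a median of -1.32. Without hindbrain 1 alone 2 of the 13 were called, without hindbrain 2 alone 3, without hindbrain 3 alone 1 and without forebrain 2 alone 2. With libraries of neighbouring TS numbers as blocks 1 was called. Of the 5, Corin was called in all 6 fits that left out 1 library. Ferd3l lost the call without forebrain 2 (0.0511) or hindbrain 3 (0.0675), and Slit1 without hindbrain 1 (0.0560) or hindbrain 3 (0.0788). Ntn1 lost it without forebrain 2 (0.135), hindbrain 1 (0.148), hindbrain 2 (0.119) or hindbrain 3 (0.170), and with the replicate number as a block (0.0675). Foxj1 lost it without forebrain 2 (0.0681), hindbrain 1 (0.0581), hindbrain 2 (0.0506) or hindbrain 3 (0.0972).

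**Figure D4:**
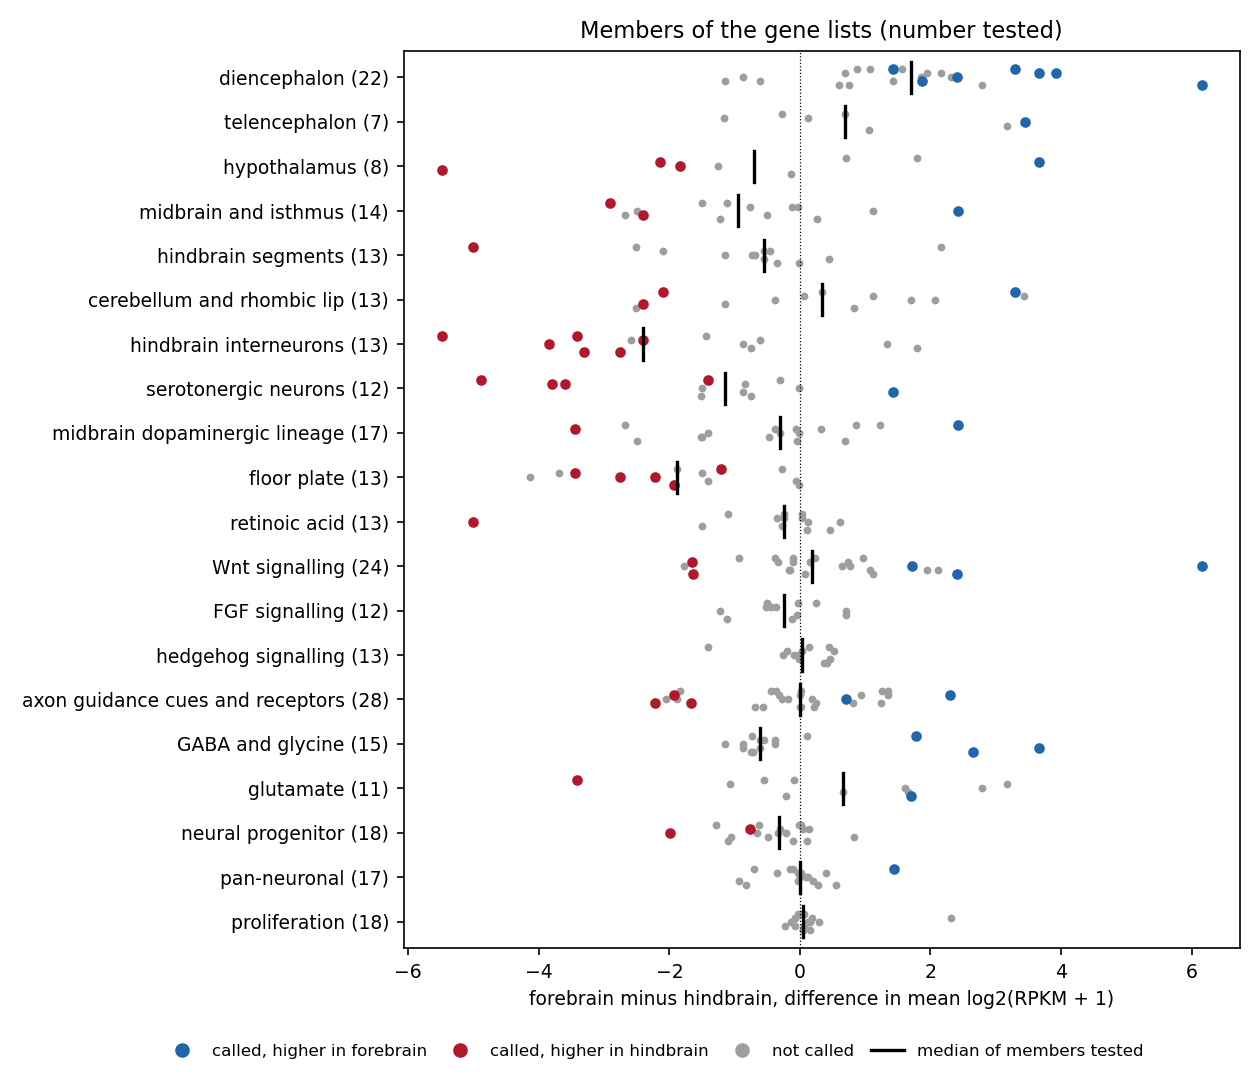
Forebrain minus hindbrain difference in mean log2(RPKM + 1) for each tested member of 20 gene lists, with the number tested in brackets. Blue points were called higher in the forebrain, red points higher in the hindbrain, grey points were not called, and the bar is the median of the members tested. Diencephalon genes lie mostly right of 0 (median 1.71), and hindbrain interneuron (-2.40) and floor plate (-1.89) genes mostly left of it.

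Isthmus and rhombic lip genes were called in both directions, against 2.13% called over all genes. The cerebellum and rhombic lip list had 13 tested genes, with Barhl2 called higher in the forebrain and Pax2 and Skor2, a corepressor related to Skor1, higher in the hindbrain. Of 14 tested midbrain and isthmus genes, Pax5 and Pax2 were called higher in the hindbrain and Otx2 higher in the forebrain. In the fit without forebrain 1 and hindbrain 1, 4 were called higher in the hindbrain and 2 higher in the forebrain, and the numbers for the cerebellum and rhombic lip list were 4 and 4. Neither list had a gene called higher in the hindbrain without forebrain 3, hindbrain 2 or hindbrain 3, and with the TS-number blocks the rhombic lip list had none in either direction. Pax5, a paired box factor of the isthmus, had 18.3, 4.76 and 3.41 RPKM against 0 to 0.0814 (-2.90 ± 0.52, adjusted p = 0.0489) and lost the call without forebrain 2 (0.149), forebrain 3 (0.135), hindbrain 2 (0.128) or hindbrain 3 (0.0786). En1 (-2.49, adjusted p = 0.223) and En2 (-2.69, 0.141) were above the forebrain in all hindbrain libraries, with hindbrain 1 at several times its pair. Among 13 tested hindbrain segment genes 1 was called, Cyp26b1, an enzyme that degrades retinoic acid and is expressed in rhombomeres. Cyp26b1 was at 25.5, 50.9 and 52.1 RPKM in the hindbrain against 0.123, 0.366 and 0.433 in the forebrain (-5.01 ± 0.28, adjusted p = 0.000592). It was also the 1 gene called of 13 tested in the retinoic acid list, where Dhrs3, a retinal reductase, stood at 2.31, 4.41 and 4.32 against 0.161, 0.954 and 0.868 RPKM (-1.50, adjusted p = 0.0536, and 0.0105 with the replicate number as a block). Meis1 was at 13.1, 47.8 and 41.0 RPKM against 3.97, 7.24 and 2.79 (-2.51, adjusted p = 0.0710, and 0.0439 with the block).

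Signalling lists are given by their counts, beside 2.13% called over all genes. At that share lists this short may well hold no called gene. The Wnt list had 3 of 24 tested genes called higher in the forebrain and 2 higher in the hindbrain, with a median of 0.19. The counts were 7 and 3 with forebrain 1 and hindbrain 1 left out, and without hindbrain 3 alone they were 2 and 0. Besides the effectors Tcf7l2 and Lef1, the receptor Fzd1 was higher in the forebrain, at 46.5, 48.1 and 32.4 RPKM against 12.9, 10.96 and 12.1 (1.72 ± 0.16, adjusted p = 0.00445). The receptor Fzd7 was higher in the hindbrain, at 16.3, 10.5 and 11.5 against 2.36, 4.03 and 3.79 (-1.65, adjusted p = 0.0155), as was the ligand Wnt4, at 4.63, 3.70 and 4.73 against 1.12, 0.543 and 0.546 (-1.64, adjusted p = 0.00735). The FGF list (12 tested, median -0.24) and the hedgehog list (13 tested, median 0.03) had no called member. Leaving out forebrain 1 and hindbrain 1, 2 FGF genes were called higher in the forebrain and 1 higher in the hindbrain, and in the fit of all 15 libraries 1 was called higher in the forebrain. The hedgehog list had no call in either, and its median was -0.15 without forebrain 1. Shh, the ligand itself, overlapped between the regions, with 27.7, 13.0 and 16.6 RPKM in the hindbrain and 3.09, 4.77 and 14.9 in the forebrain (-1.41, adjusted p = 0.290). Of 21 Eph receptors and ephrins, Efnb3, a ligand of the midline, was called, at 132, 112 and 131 RPKM in the hindbrain against 59.6, 55.1 and 60.3 (-1.08 ± 0.08, adjusted p = 0.00214). Of 28 axon guidance genes, 2 were called higher in the forebrain and 3 higher in the hindbrain, the latter Ntn1, Slit1 and Slit3 (-1.67, adjusted p = 0.00570). None of the 28 was called without hindbrain 3, 1 without hindbrain 1, and 2 without forebrain 2 or hindbrain 2, while with forebrain 1 and hindbrain 1 left out 6 were higher in the forebrain and 9 in the hindbrain.

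Of 11 tested glutamate genes 1 was called in each direction, against 2.13% called over all genes. With forebrain 1 and hindbrain 1 left out, 5 of the 11 were called higher in the forebrain and 3 higher in the hindbrain. Slc17a6, the glutamate transporter VGLUT2, was higher in the forebrain, at 48.6, 40.3 and 48.0 RPKM against 8.33, 18.0 and 15.7 (1.70 ± 0.26, adjusted p = 0.0299), and Slc17a8 was higher in the hindbrain as given above. Slc17a6 lost the call without forebrain 2 (0.0912), forebrain 3 (0.0982) or hindbrain 3 (0.101). Among 15 GABA and glycine genes 3 were called, all transcription factors higher in the forebrain: Six3, Tal2 and Helt, a midbrain and diencephalic GABAergic factor (1.78, adjusted p = 0.0118). Helt lost the call without hindbrain 1 (0.0501), hindbrain 2 (0.0652) or hindbrain 3 (0.0728). The transporter of GABA into vesicles, Slc32a1, was at 13.0, 30.1 and 20.5 RPKM in the forebrain against 35.7, 33.5 and 31.8 in the hindbrain (-0.72, adjusted p = 0.295). Among 9 tested neuropeptides Pdyn, the dynorphin precursor, was higher in the hindbrain, at 6.96, 12.9 and 11.7 RPKM against 0.240, 1.63 and 1.65 (-2.45, adjusted p = 0.0246). It lost the call without forebrain 2 (0.0637), forebrain 3 (0.0506), hindbrain 2 (0.109) or hindbrain 3 (0.129). Of the 9 neuropeptides, 1 was called higher in the forebrain and 4 higher in the hindbrain when forebrain 1 and hindbrain 1 were left out.

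Of the progenitor, pan-neuronal and proliferation genes tested, 2 of 18, 1 of 17 and 0 of 18 were called, against 2.13% over all genes. The difference was below 0 at 13 of the 18 progenitor genes, against 6729 of 13001 over all genes. Of 18 progenitor genes, Slc1a3, the glial glutamate transporter, and Rfx4, a transcription factor of neural progenitors, were called, both higher in the hindbrain. Slc1a3 was at 81.3, 62.6 and 60.8 RPKM against 10.5, 22.98 and 17.6 (-1.996 ± 0.27, adjusted p = 0.0178) and Rfx4 at 21.6 to 28.0 against 12.1 to 14.8 (-0.76, adjusted p = 0.0343). Neither was called without hindbrain 1 (0.0780 and 0.0811), hindbrain 2 (0.0765 and 0.0774), hindbrain 3 (0.0850 and 0.140) or forebrain 3 (0.0599 and 0.0772), nor was Rfx4 without forebrain 2 (0.105). With forebrain 1 and hindbrain 1 left out, 8 of the 18 were called, all higher in the hindbrain. Over all 13001 genes that fit called 868, of which 562 were higher in the hindbrain. Of 17 pan-neuronal genes 1 was called, Cntn2, an axonal adhesion protein, at 43.5, 37.2 and 30.4 RPKM in the forebrain against 9.19, 18.6 and 12.4 (1.44, adjusted p = 0.0434, and 0.0543 with the replicate number as a block). Cntn2 lost the call without forebrain 2 (0.140), forebrain 3 (0.0802), hindbrain 1 (0.0971) or hindbrain 3 (0.187). Without both forebrain 1 and hindbrain 1, 4 pan-neuronal genes were called higher in the forebrain and 3 higher in the hindbrain. None of 18 proliferation genes was called, and their median difference was 0.05. That median turned on single libraries: it was -0.51 without forebrain 1, 0.37 without forebrain 2 and 0.28 without hindbrain 1. Ccnd2, a G1 cyclin, came closest, at 82.9, 39.4 and 36.6 RPKM in the forebrain against 16.6, 7.21 and 6.24 (2.31, adjusted p = 0.0527, and 0.000589 with the replicate number as a block).

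Several hindbrain-high genes belonged to none of the lists. Vtn, the extracellular adhesion protein vitronectin, was the call with the lowest adjusted p (3.8e-05), at 83.1, 79.1 and 89.7 RPKM in the hindbrain and 6.56, 6.46 and 5.49 in the forebrain (-3.57 ± 0.09). Ccdc3, a secreted coiled-coil protein, was at 39.8, 30.0 and 35.9 RPKM against 0.369, 1.003 and 1.28 (-4.29 ± 0.21). Lgi3, a secreted leucine-rich repeat protein, was at 17.4, 14.9 and 16.9 against 0.0930, 0.357 and 0.477 (-3.74 ± 0.14). Cmtm8, a membrane protein, was at 11.6, 11.9 and 15.8 against 1.14, 0.640 and 1.13 (-2.84 ± 0.16). All 4 were called in each of the 6 fits that left out 1 library.

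Genes of other cell types were compared because dissected tissue can carry them. None of the tested erythroid (7), endothelial (12), mesenchymal (3) or microglial (7) genes was called. Over all genes 2.13% were called, a share at which lists this short may well hold none. Summed RPKM of the erythroid list was 1279 to 1427 in the forebrain and 1310 to 1578 in the hindbrain. The microglial list summed to 12.2 to 15.6 and 16.2 to 19.3, without overlap. All 7 tested microglial genes had a difference below 0. At 4 of them the hindbrain libraries all lay above the forebrain ones, against 1627 of 13001 over all genes. The summed list of meninges and mesenchyme did not overlap between the regions either, at 14.7 to 20.6 RPKM in the forebrain and 5.62 to 10.3 in the hindbrain. Its gene Postn, untested, had 0.1798, 9.37 and 9.97 RPKM in forebrain 1, 2 and 3 and at most 0.645 in the hindbrain. The part of these cells in the results was not tested. The choroid plexus list summed to 57.1 to 128.5 RPKM in the forebrain and 213 to 364 in the hindbrain. Sulf1, which the floor plate shares, had 178 RPKM or more in each hindbrain library and 1.09 to 40.6 in the forebrain. Of its 10 genes 4 were tested. Otx2 was called higher in the forebrain, and Enpp2 and Foxj1, which floor plate or other midline cells also express, were called higher in the hindbrain, while the defining marker Ttr was at most 0.859 RPKM in any library. Enpp2 had 32.8, 17.9 and 20.1 RPKM against 9.22, 8.24 and 10.3 (-1.22, adjusted p = 0.0489) and lost the call without forebrain 2 (0.161), forebrain 3 (0.106), hindbrain 2 (0.0752) or hindbrain 3 (0.154). Sex-linked genes followed the replicate number and not the region. Xist was at 88.4, 55.2 and 0.0960 RPKM in forebrain 1, 2 and 3 and at 79.9, 61.7 and 0.216 in hindbrain 1, 2 and 3.

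The leading genes were then followed into the other 9 libraries, by level only. Tcf7l2 was at 2.46 to 3.003 RPKM in the ventral midbrain, near the hindbrain, at 57.9 to 214.5 in the alar plate and at 18.9, 22.9 and 378 in the dorsal midbrain, where the high value is that of dorsal midbrain 3. Otx2 was higher in all 9 other libraries than in any forebrain or hindbrain library. Emx2 was above every hindbrain library in all 9, with 19.8 to 27.2 RPKM in the ventral midbrain. Barhl2 and Dbx1 were higher in all 6 alar plate and dorsal midbrain libraries than in any forebrain library. Lef1 was at 31.5 to 58.9 RPKM in the dorsal midbrain against 6.73 to 22.5 in the forebrain. Tcf7l2, Islr2, Ntng2 and Mdga1 were above every forebrain library in none of the 9. Otp, Cyp26b1, Lgi3, Vtn, Slc17a8, Skor1, Tph2 and Cmtm8 were lower in all 9 other libraries than in any hindbrain library. Otp reached at most 1.45 RPKM there, and Cyp26b1 reached 10.3 RPKM in the alar plate. Corin, by contrast, was higher in all 3 ventral midbrain libraries (32.4 to 41.2 RPKM) than in any hindbrain library, and Pax5 ranged from 0 to 16.8 RPKM within the alar plate. Outside the leading genes, Lhx4 (13.15 to 15.74 RPKM), Ferd3l (30.8 to 38.6) and Ntn1 (229.5 to 253.4) were likewise higher in the ventral midbrain than in any hindbrain library. Slit1, Sulf1 and Spon1 overlapped between these regions. Foxd3 and Pax2 were at most 0.138 and 0.409 RPKM in the ventral midbrain.

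**Figure D5:**
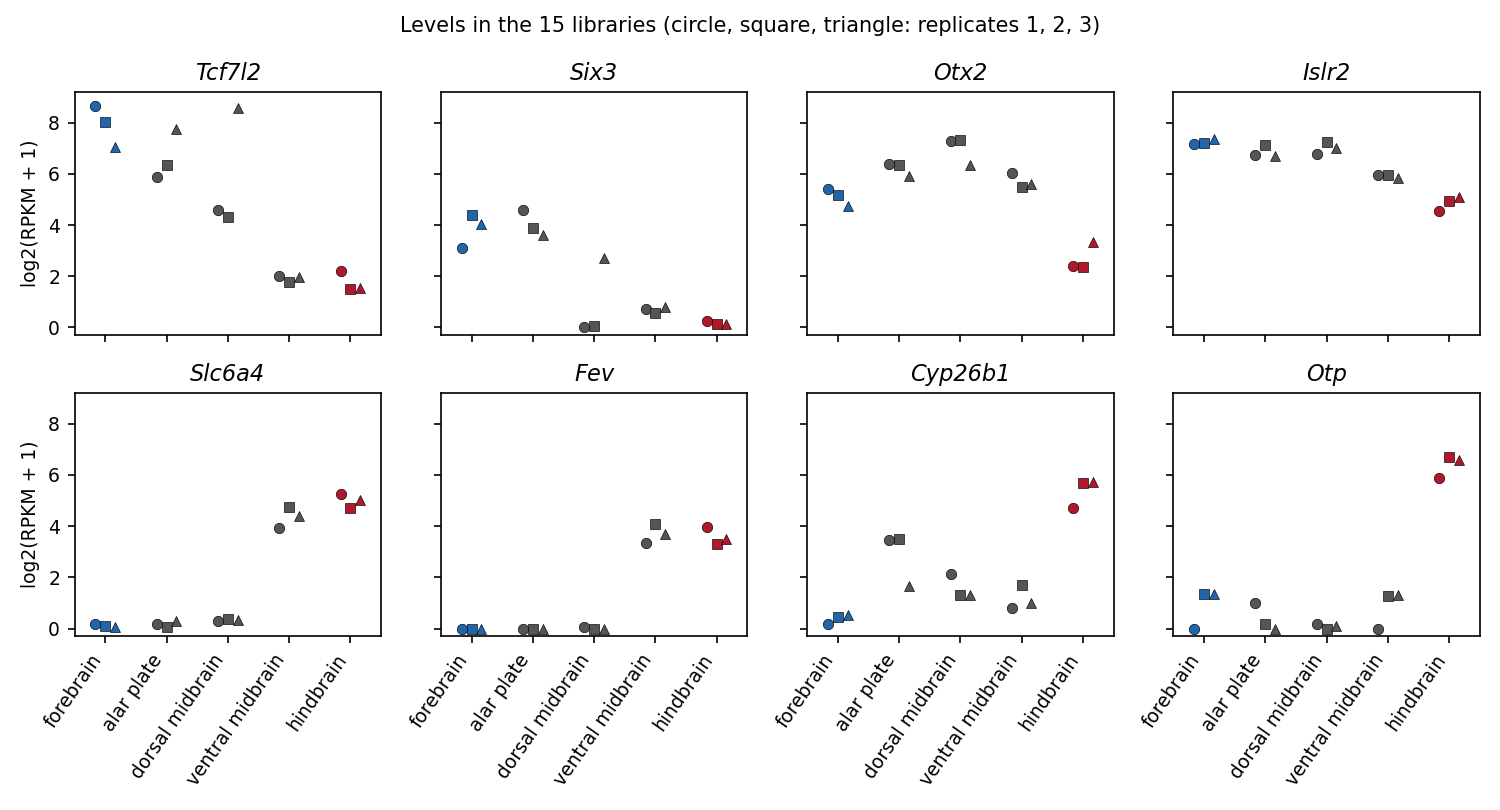
Levels of 8 leading genes as log2(RPKM + 1) in all 15 libraries, ordered by region from forebrain to hindbrain, with circle, square and triangle for replicates 1, 2 and 3. Tcf7l2 and Islr2 are high in the forebrain and low in the hindbrain, Otx2 is lowest in the hindbrain, Slc6a4 and Fev are present in the ventral midbrain and hindbrain, and Otp stands out in the hindbrain.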

How the data were processed

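Libraries were made from 200 ng of total RNA with an Illumina TruSeq kit, per the labels' protocols. The authors deposited 1 table of RPKM values, 1 column per library. The submitters' processing notes name Bowtie and the build mm9. Not given in the sources used here: the aligner's version, the annotation, the counting and its use of strand, and filters. Whole reads were recovered from the RPKM steps for 99.6% of 16612 genes, those with values in at least 10 libraries (tolerance 0.02 reads for small values, at most 0.15), and give the depths and floors, which cover counting error only.

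Groups came from the labels. Values were tested as log2(RPKM + 1), pseudocount 1, with limma 3.58.1 in R 4.3.3 (variance trend, two-sided), fitting only the 6 forebrain and hindbrain libraries, for genes with at least 1 RPKM in at least 3 of them, with Benjamini-Hochberg adjustment over the 13001 genes. A gene was called at an adjusted p under 0.05. This scale understates the change of weakly expressed genes. The scripts were tested on simulated data. Named genes were the 15 highest and 15 lowest differences among called genes with non-overlapping groups and a mean of at least 5 RPKM in the higher region, and up to 6 members per list with the largest differences; beside them, Gch1, Ddc, Olig3, Foxa1, Slc32a1, Slit3, Fzd7, Wnt4, Reln and genes of the closing section were chosen after their values were seen, as were untested markers given by level. The members and the 36 gene lists were chosen with earlier results of these data known. Lists share members, and are described by counts and medians without a test. The 18 alternatives changed 1 choice at a time, except that 1 left out 2 libraries together and voom changed both the values and the model. The labels do not state that replicate numbers pair the libraries, and the main fit does not use a pairing. Deviations from the region means correlated at 0.34, 0.28 and 0.21 for numbers 1, 2 and 3. Forebrain 3 with hindbrain 2 reached 0.18 and forebrain 2 with hindbrain 3 reached 0.10, and the rest lay from -0.28 to -0.20. Within a region the deviations cancel, so these values are not independent. Promoter windows come from RefSeq (GRCm38.p6), not the files' build, so no other coordinates are given. Results for some genes are not reported here.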

Additional observations from a re-analysis of the deposited data

How the results depend on the processing

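The 277 called genes became 159 with a filter of 5 RPKM, which tests 9440 genes, 95 with libraries of neighbouring TS numbers as blocks (the labels do not say what that number means), and 868 with forebrain 1 and hindbrain 1 left out together. Leaving out 1 library gave from 65 (without hindbrain 3) to 519 (without forebrain 1). The cause of these shifts was not tested, beyond the smaller number of genes or libraries. With a replicate block, which pairs libraries of the same number, 300 genes were called, 207 of them among the 277. The other alternatives stayed within 1.5 times: 250 with a pseudocount of 0.1, 254 with the filter in 2 libraries, 262 with no filter, 240 after quantile normalization, 281 after median-ratio scaling, 367 with all 15 libraries fitted, 272 without the variance trend and 228 by voom on recovered reads. None of the 277 had a difference of the other sign in any of the 18 alternatives that tested it (181 of them were tested with the filter of 5 RPKM and 267 by voom). For most alternatives this was fixed in advance. The groups did not overlap at any called gene, so leaving out libraries could not reverse a sign. The filters, blocks, variance setting and 15-library fit do not change the difference itself. Of the 277, 60 (11 higher in the forebrain and 49 in the hindbrain) were called without each of the 6 libraries in turn. The block ended the calls of Dbx1, Mdga1, Ntn1 and Cntn2 among the named genes and brought 15 others past the threshold, among them Lhx9, Sim1, Meis1, Dhrs3 and Ccnd2. An unadjusted p under 0.05 was reached by 1812 genes. Values near 0.1 RPKM rest on about 3 reads.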

Other observations

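Some genes called higher in the hindbrain are known from motile cilia. They were picked from the calls after their values were seen, and cilia genes that were not called were not counted. Beside Foxj1, the master factor of motile cilia, they included Fam183b at 10.3, 4.90 and 5.76 RPKM in the hindbrain against 0.461, 0.482 and 0.871 in the forebrain (-2.27, limma adjusted p = 0.0107), the radial spoke gene Rsph1 at 2.64, 2.43 and 2.95 against 0.645, 0.337 and 0.391 (-1.34, adjusted p = 0.00651), and the dynein heavy chain Dnahc9 at 4.03, 3.13 and 4.74 against 1.08, 0.621 and 0.623 (-1.48, adjusted p = 0.0109). Enkur (-1.20), Dynlrb2 (-1.38) and the ciliary transcription factor Rfx2 (-0.88) were called in the same direction. Foxj1 is a member of both the floor plate and choroid plexus lists.

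Monoamine genes outside the serotonergic list were also read after the fact. Maoa, the enzyme that degrades serotonin and noradrenaline, was at 8.08, 8.60 and 8.43 RPKM in the hindbrain against 4.37, 4.37 and 4.33 in the forebrain (-0.81, limma adjusted p = 0.00535), and Slc22a3, a low-affinity monoamine transporter, at 5.10, 4.58 and 4.71 against 0 to 0.0458 (-2.50, adjusted p = 0.000185). Both had little spread within either region. The somatostatin receptor gene Sstr2 was at 18.5, 15.6 and 14.8 RPKM against 3.48, 3.55 and 3.67 (-1.92, adjusted p = 0.000416).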
